A study of Rattus norvegicus with 6 samples.

Results

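The genes described are the subunits of the mitochondrial respiratory chain and ATP synthase that are encoded in the nucleus, measured in rat nucleus pulposus cells, which fill the soft centre of the intervertebral disc. Members were taken by symbol: the Nduf genes with a subunit letter and number, Ndufab1, the 4 succinate dehydrogenase genes, the Uqcr genes, the Cox genes from Cox4 to Cox8, and the Atp5 genes, with the Ndufaf assembly factors left out. The rule took 85 of the 22573 gene rows used. Of these, 72 are subunits of complexes I to V, 8 are tissue or stress isoforms of complex IV subunits or of Ndufa4, and 5 are copies or relatives. Levels are in FPKM as the authors deposited them, a unit that divides fragments by the length of the transcript and by the size of the library. Genes averaging 1 FPKM or more across the 6 libraries were tested, and 77 members reached that level.

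The series compared 3 control samples with 3 samples classed as cyclic tensile strain, all of total RNA from Sprague Dawley rat cells. A Flexcell device stretched the cells by 18% of their length at 0.2 Hz, over 24 h. The comparison asks which genes respond to such stretching. Every sample carries the same treatment text, so the controls are known as controls only by their titles and class label. No label says whether replicates came from separate cultures or animals, so a p-value here weighs a difference against sample-to-sample spread that may be technical.

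The respiratory chain sits in the inner mitochondrial membrane. Complex I oxidises NADH and complex II oxidises succinate. Both pass electrons to ubiquinone, complex III passes them on to cytochrome c, and complex IV hands them to oxygen. Complexes I, III and IV pump protons, and complex V, the ATP synthase, lets the protons back and makes ATP. Several complex IV subunits exist in a ubiquitous form and in forms restricted to muscle, testis or cells short of oxygen. The nucleus pulposus has no blood vessels of its own and lies in a tissue low in oxygen, where cells are known to live largely by glycolysis.

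Summed FPKM ranged from 309497 to 348238 per library, and the depth in reads is unknown because FPKM keeps no read totals. Of 13 nucleus pulposus and notochord markers, 10 were tested, 8 were higher and 1, Cdh2, was lower under strain. Marker counts here are at a limma adjusted p under 0.05, where 16.4% of all genes were higher and 19.0% lower. The markers Krt18, Krt19 and T stayed under 0.15 FPKM in every library, and Col2a1 stayed under 0.07 FPKM in controls and reached 1.41 FPKM in strain replicate 3. Acan, the disc proteoglycan, lay between 24.2 and 43.3 FPKM. Of 4 macrophage markers tested 1 (Lyz2) was higher and 2 (Adgre1 and Cd68) were lower, Adgre1 not without strain replicate 3. The 1 fat marker tested (Fabp4) was lower. Lyz2 reached the level for testing only through the strain group (mean 0.25 FPKM in controls, 3.30 under strain). Cd68 (1.525 and 0.633) and Fabp4 (2.41 and 0.36) reached it only through the controls. The 1 endothelial marker tested (Eng) was higher. Among those not tested, Flt1 was lower (1.43 and 0.48) and Pecam1 higher (0.07 and 0.27), both without overlap. Cdh5 was listed at 0 in every library. All 6 blood markers were listed at 0 in every library. In bulk RNA, a change in the share of a cell type and a change in RNA per cell cannot be told apart.

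The clearest changes were in the isoforms. Ndufa4l2, a paralogue of the complex IV subunit Ndufa4 known to be induced by low oxygen in other cells, was 3.49 times as high under strain. Cox6a2, the heart and skeletal muscle form of subunit 6a, was 4.12 times as high, and Cox4i2, the form of subunit 4 known from lung and low oxygen, was 2.18 times as high. Cox6b2, the testis form of subunit 6b, was lower, but it reached the level for testing only through its controls. The promoters of the pair that rose most are shown because the groups were farthest apart there. Each is the RefSeq window of GRCr8 from 250 bases before to 50 bases after the gene's start, 5′ to 3′ on the gene's strand, Ndufa4l2 at chr7:65241919-65242218 on the plus strand and Cox6a2 at chr1:192219667-192219966 on the minus strand. Capitals mark the letters TAAAAATA, a core of the muscle factor MEF2.
Ndufa4l2: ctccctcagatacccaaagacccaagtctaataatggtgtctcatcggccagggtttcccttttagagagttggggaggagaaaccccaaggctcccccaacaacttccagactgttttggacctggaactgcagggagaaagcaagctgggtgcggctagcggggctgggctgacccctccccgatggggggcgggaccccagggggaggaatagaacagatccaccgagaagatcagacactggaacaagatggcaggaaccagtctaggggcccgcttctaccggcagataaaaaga
Cox6a2: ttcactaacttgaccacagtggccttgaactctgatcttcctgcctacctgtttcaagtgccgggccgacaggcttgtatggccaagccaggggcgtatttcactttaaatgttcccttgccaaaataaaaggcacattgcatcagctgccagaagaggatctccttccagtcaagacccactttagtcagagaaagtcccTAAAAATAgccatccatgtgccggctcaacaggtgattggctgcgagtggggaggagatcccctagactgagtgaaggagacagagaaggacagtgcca

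The MEF2 core stood in the Cox6a2 window from 49 bases before the start, on the gene's strand. It was searched on both strands (TAAAAATA or TATTTTTA) and was found in 1 of the 74 members with a promoter entry (1.35%) and in 2.69% of all 33469 promoters. Neither ACGTG nor GCGTG, cores of the hypoxia-inducible factor site, was in the Ndufa4l2 or Cox6a2 window. A match is a run of letters and not a measured site.

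Ndufa4l2 stood at 38.95, 41.80 and 32.98 FPKM in control replicates 1, 2 and 3, and at 106.3, 130.2 and 160.5 FPKM in strain replicates 1, 2 and 3. The lowest strain library was far above the highest control, and replicate 3 was the highest of all. The difference was 1.76 ± 0.15 (log2(FPKM + 1), ± SE, n = 3 and 3; adjusted p = 8.3e-05, limma with Benjamini-Hochberg adjustment over all 10180 genes tested, two-sided). Without strain replicate 3, Ndufa4l2 was 3.12 times the control mean.

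Cox6a2 measured 3.82, 5.08 and 2.62 FPKM in the controls against 11.38, 17.76 and 18.36 FPKM under strain. The groups did not overlap, and replicates 2 and 3 of the strain group lay close together. The log2 difference of Cox6a2 was 1.80 ± 0.22 (limma adjusted p = 0.000463), and the ratio of means without strain replicate 3 was 3.79.

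Cox4i2 was a low transcript, at 7.55, 3.42 and 4.59 FPKM in controls and 9.88, 10.09 and 13.89 FPKM under strain. Control replicate 1 came nearest to the strain group but stayed below it. The log2 difference of Cox4i2 was 1.03 ± 0.23 (limma adjusted p = 0.0090), and its adjusted p was 0.0426 without strain replicate 3. Cox4i2 has no entry in the promoter table.

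Cox6b2 lay at 3.01, 2.32 and 1.74 FPKM in controls and at 1.31, 0.13 and 1.23 FPKM under strain. The groups did not overlap, but all 6 values are near the level asked for testing, and the strain mean was under 1 FPKM, so no ratio is given. Cox6b2 reached that level only through its controls (mean 2.35 FPKM, against 0.89 FPKM under strain), so its call carries little weight. The log2 difference of Cox6b2 was -0.88 ± 0.27 (limma adjusted p = 0.0372). It was called in 8 of the 14 alternatives that tested it and lost its call without control replicate 1 (-0.74) and without control replicate 2 (-0.88). The ubiquitous partner Cox6b1 is not analysed here.

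The other isoforms were at or near 0. Cox8b, a muscle form, and Cox7b2 and Cox8c, testis forms, were listed at 0 in all 6 libraries. Cox7a1, the heart and muscle form of subunit 7a, was listed at 0 in the controls and in strain replicate 2, and stood at 0.03 FPKM in strain replicates 1 and 3. Of the 3 muscle forms, only Cox6a2 was thus above the level for testing.

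**Figure D1:**
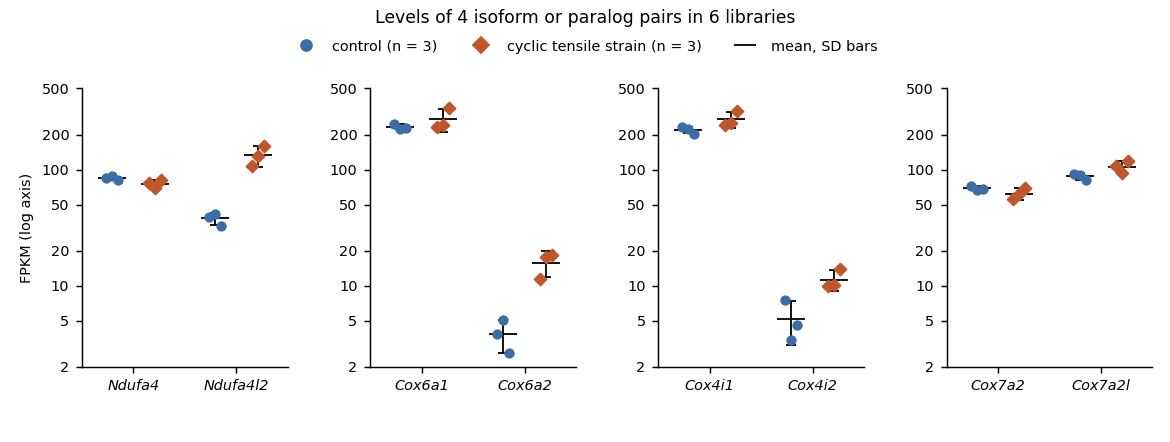
Levels in FPKM (log axis) of 4 pairs of isoforms or paralogues, 1 point a library, circles for the 3 controls and diamonds for the 3 strain libraries, with lines at the group mean and bars of 1 SD. Ndufa4l2 stood above Ndufa4 in every strain library and below it in every control, while Cox6a2 and Cox4i2 were higher under strain but stayed far under Cox6a1 and Cox4i1.

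Markers of cell types in which these isoforms are abundant were read beside them. Of 20 skeletal and heart muscle genes, 3 were tested (Acta1, Des and Eno3). Eno3, the muscle form of enolase, rose from 4.27 ± 1.26 to 19.98 ± 4.01 FPKM (SD, n = 3; limma adjusted p = 0.000141). Acta1 (adjusted p = 0.93) and Des (adjusted p = 0.097) did not pass in the same limma fit. Ckm, Myh2, Myh4, Myh7 and Tnni2, which define muscle fibres, were listed at 0 in all 6 libraries, as were some genes that every cell uses, such as Ndufa3. Summed over the list, the level ran from 6.97 to 11.95 FPKM in controls and from 22.1 to 34.4 FPKM under strain. Eno3 carried that difference: the other 19 genes summed to 4.12 to 6.66 FPKM in controls and 4.85 to 9.79 FPKM under strain, which overlap.

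Ndufa4l2 and Cox4i2 are also known as markers of pericytes, the mural cells of small vessels. In a list of 10 pericyte and mural cell genes, chosen after values were seen, 7 were tested and 5 were higher. Of all genes tested, 16.4% were higher. Cspg4, the NG2 proteoglycan, was 3.37 times as high under strain and Pdgfrb, the platelet-derived growth factor receptor beta, 1.45 times. Rgs5, a defining marker, was listed at 0 except for 0.114 FPKM in control replicate 2. The summed level was 269.5 to 460.8 FPKM in controls and 426.6 to 643 FPKM under strain, and most of it was Acta2, smooth muscle actin (214.3 to 392.7 against 336.9 to 538.5 FPKM). Without Acta2 the other 9 summed to 55.3 to 68.1 FPKM in controls and 89.7 to 104.5 FPKM under strain. These ranges do not overlap, but the genes were chosen with their values known, so this is no test. Acta2 (limma adjusted p = 0.10) and Myh11 (log2 -0.13, adjusted p = 0.44) did not pass. Higd1b was listed at 0 in all 6 libraries. The part of other cells in the isoform changes was not tested.

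Targets of the hypoxia-inducible factors did not move one way. In a list of 14, also chosen after values were seen, all were tested, 2 were higher and 5 were lower. Of all genes tested, 16.4% were higher and 19.0% lower. Car9, a carbonic anhydrase, was 1.84 times as high and P4ha1, a collagen prolyl hydroxylase subunit, 1.69 times. The growth factor Vegfa was 1.95-fold lower, the glucose transporter Slc2a1 1.88-fold lower and the prolyl hydroxylase Egln3 3.26-fold lower. Adm and Kdm3a were the other two that fell. Oxygen was not given in the labels, and its part was not tested.

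Within isoform families the balance shifted. The share of Ndufa4l2 in the summed FPKM of Ndufa4 and Ndufa4l2 was 31.4%, 32.4% and 29.0% in controls and 58.2%, 65.2% and 66.3% under strain. The partner Ndufa4 was 84.4 ± 3.26 FPKM in controls and 75.8 ± 6.01 FPKM under strain (SD, n = 3), a log2 difference of -0.15 that did not pass (limma adjusted p = 0.22). The majority form of the pair therefore changed from Ndufa4 to Ndufa4l2. The exact two-sided permutation p of this share was 0.1, the smallest that 3 against 3 can give, and no share of the 6 families compared can pass 0.05 in this design.

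Cox6a2 made up 1.53%, 2.2% and 1.14% of the Cox6a pair in controls and 4.62%, 6.89% and 5.11% under strain. Cox4i2 made up 3.16%, 1.52% and 2.2% of the Cox4 pair in controls and 3.89%, 3.85% and 4.14% under strain. In both pairs the ubiquitous form kept at least 93.1% of the summed FPKM in every library. Cox6a1 and Cox4i1 did not pass the test (limma adjusted p = 0.32 and 0.086).

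Another pair of families shifted without a member passing the test. Cox7a2, the liver-type form of subunit 7a, held 44.3%, 42.6% and 45.9% of the family with Cox7a1 and Cox7a2l in controls and 34.1%, 39.8% and 37.1% under strain. Cox7a2l is a factor that joins complexes III and IV in supercomplexes, and it held the rest but for at most 0.0195%. The c ring of ATP synthase, which turns as protons pass, is made from the identical mature product of Atp5g1, Atp5g2 and Atp5g3. The share of Atp5g2 went from 55.2% ± 1.34 to 63.3% ± 2.97 (SD, n = 3), that of Atp5g1 from 13.1% ± 1.15 to 9.80% ± 1.82 and that of Atp5g3 from 31.8% ± 2.44 to 26.9% ± 2.2. Each of these shares had p = 0.1 in the exact permutation test; the Atp5g3 share is the one that comes nearest to overlapping, at 29.2% in control replicate 2 and 28.7% in strain replicate 1.

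**Figure D2:**
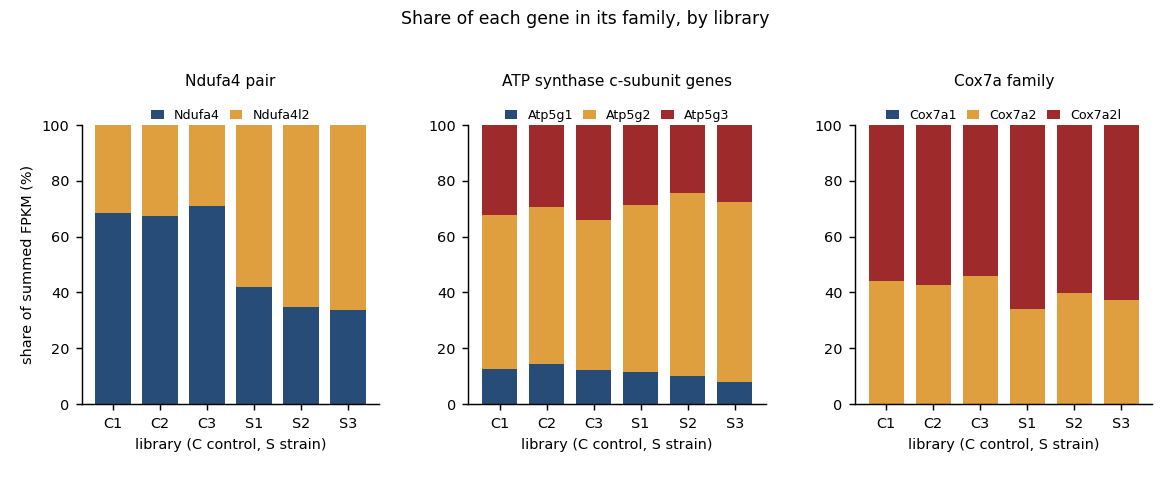
Stacked bars of the share of each gene in the summed FPKM of its family (percent), 1 bar for each control (C1 to C3) and strain (S1 to S3) library, for the Ndufa4 pair, the c-ring genes and the Cox7a family. Ndufa4l2 took 29.0% to 32.4% in controls and 58.2% to 66.3% under strain, and Cox7a1 is too low to be seen.

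Across the 77 tested members, 13 were higher and 1 was lower under strain at a limma adjusted p under 0.05. That is 16.9% higher, where 16.4% of all 10180 genes tested were called higher, 19.0% lower and 35.4% in either direction. The members' share of rises was thus near the background in this fit, but above it with the scalings between libraries given below. Falls were few: of the 68 tested subunits of complexes I to V, 10 rose (14.7%) and 0 fell. At an unadjusted limma p under 0.05, 23 of the 68 were higher and 1 was lower, against 21.4% and 24.6% of all genes. Groups did not overlap in 29 members with strain higher and in 1 with strain lower, against 24.0% and 28.0% of all genes.

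The median log2 difference of the members was 0.16, against -0.01 over all genes tested, and 63 of the 77 were positive. Without strain replicate 3 it was 0.10, against -0.03 over all genes. Without that library 11 members were called higher, all of them among the 13, and 15% of all genes were. Atp5i and Atp5e lost their call (adjusted p = 0.099 and 0.073), and Cox7a2 was called lower (adjusted p = 0.0424). The count was 6, 5 and 7 without control replicate 1, 2 and 3, where 10.3%, 14.2% and 11.9% of all genes were called higher. It was 13 and 12 without strain replicate 1 and 2, against 14.8% and 13.4% of all genes. Of the 13 of the main fit, 10 and 9 stayed called there.

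The scale between libraries set how many members passed. Summed FPKM was lower in strain replicates 1 and 2 than in any control. With each library scaled to the same sum (TPM), 29 members were called higher (37.7%), where 20.3% of all genes were. With quantile normalization 34 were called (44.2%), against 21.0% of all genes, and with median centring 25 (32.5%), against 20.2%. Under these scalings the share of all calls that were higher went from 46.3% to 57.4%, 55.6% and 55.4%. As a share of each library's summed FPKM, the members took 1.49%, 1.52% and 1.52% in controls and 1.69%, 1.72% and 1.94% under strain.

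**Figure D3:**
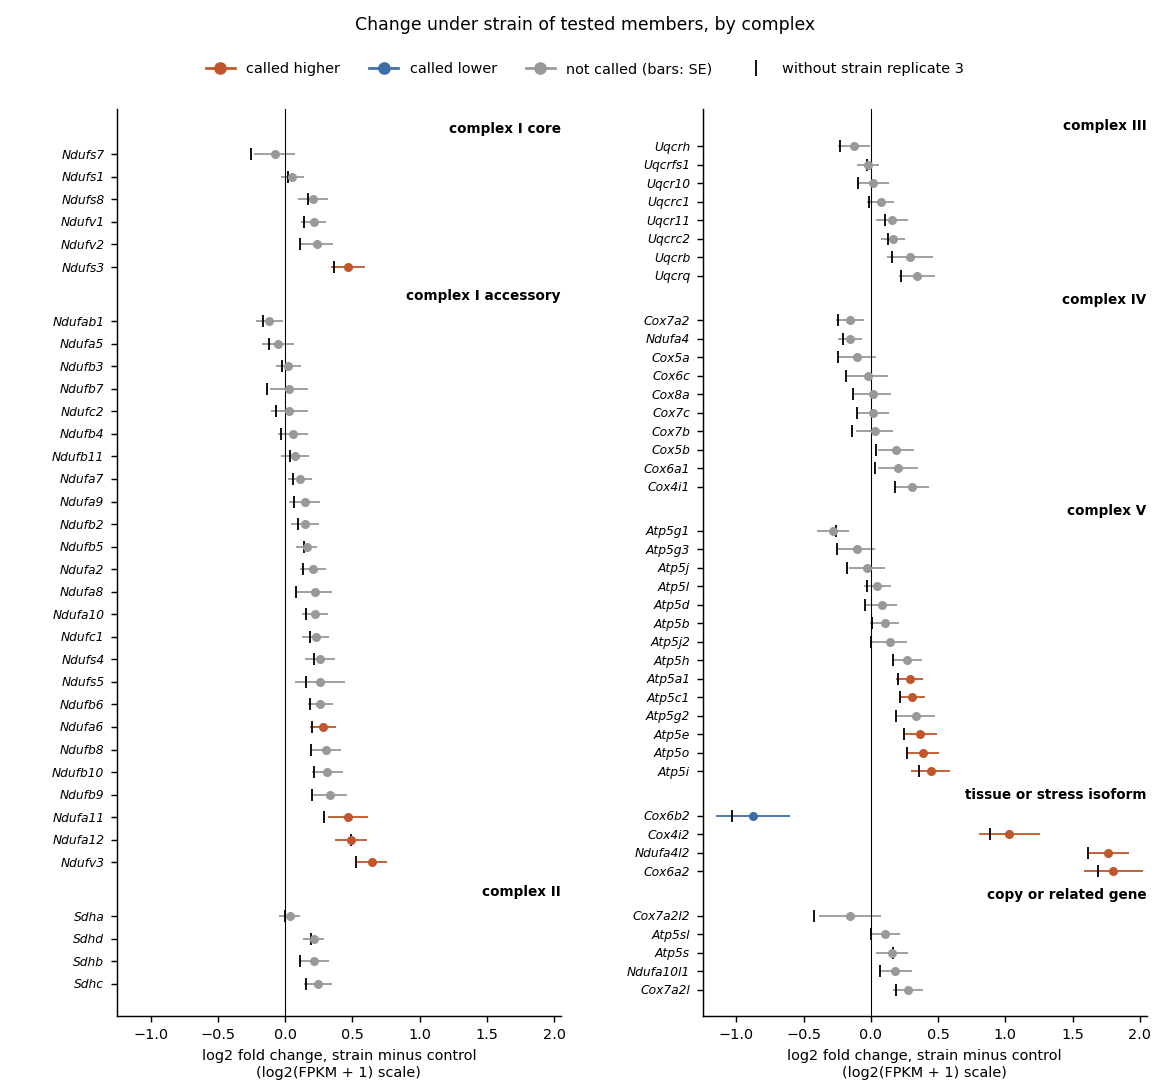
Log2 difference (strain minus control, on the log2(FPKM + 1) scale) of tested members by complex, as points with bars of 1 SE, red where called higher, blue where called lower and grey where not called at a limma adjusted p under 0.05. Black ticks give the difference without strain replicate 3, and the subunits of complexes I to V drawn here lie between -0.28 and 0.65, with the 4 isoforms farther from 0.

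Complex I, the largest, had 35 members of which 32 were tested. Control means ran from 4.69 FPKM for Ndufa12 to 219.9 FPKM for Ndufb4, with a median of 34.5. Of the 32, 5 rose (15.6%) and 0 fell (also 0 at an unadjusted limma p under 0.05), against 16.4% and 19.0% of all genes. A positive difference was seen in 29, and in 48.4% of all genes. The median log2 was 0.21, and 0.14 without strain replicate 3. The count of rises was 3, 2 and 3 without control replicate 1, 2 and 3, and 13, 16 and 11 with TPM, quantile and median scaling. The shares over all genes were 10.3%, 14.2% and 11.9% without these controls, and 20.3%, 21.0% and 20.2% with these scalings. The 5 were Ndufs3 of the core and Ndufv3, Ndufa12, Ndufa11 and Ndufa6 of the accessory subunits.

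Ndufs3, a core subunit of the quinone-reducing module, measured 19.74, 15.78 and 19.72 FPKM in controls and 24.70, 22.97 and 30.06 FPKM under strain. The lowest strain library lay above the highest control. The log2 difference of Ndufs3 was 0.47 ± 0.13 (limma adjusted p = 0.0195), and the call was lost without control replicate 2, where the difference was 0.37. The other 6 core subunits were not called: Ndufv1, which binds NADH, differed by 0.21 (adjusted p = 0.10), Ndufs1 by 0.05 (adjusted p = 0.64) and Ndufs7 by -0.08 (adjusted p = 0.73).

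Ndufv3, an accessory subunit of the NADH-oxidising module, stood at 12.24, 12.43 and 12.01 FPKM in controls and 17.55, 18.55 and 23.47 FPKM under strain. Controls lay close together and well below every strain library. The log2 difference of Ndufv3 was 0.65 ± 0.11 (limma adjusted p = 0.0027), a ratio of 1.62, the largest among the subunits of the 5 complexes. Ndufa12, of the same module, went from 4.58, 4.06 and 5.44 FPKM to 6.32, 7.66 and 6.88 FPKM, a ratio of 1.48 (log2 0.49 ± 0.12, adjusted p = 0.0129). Ndufv3 and Ndufa12, with Ndufa4l2, Cox6a2 and Cox4i2, were the 5 members called under all 15 alternatives.

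Ndufa11, in the membrane arm, was at 119.6, 116.4 and 111.7 FPKM in controls and 141.4, 141.5 and 207.0 FPKM under strain. Strain replicate 3 was far above the other strain libraries, and the ratio was 1.41 with it and 1.22 without it. The call of Ndufa11 (log2 0.47 ± 0.15, limma adjusted p = 0.0360) was lost without control replicate 1, 2 or 3, where the difference was 0.49, 0.47 and 0.44. Ndufa6, a small protein of the LYR family, went from 54.76, 53.04 and 51.78 FPKM to 61.04, 61.65 and 72.65 FPKM. Its difference was small (log2 0.28 ± 0.09, adjusted p = 0.0444) and passed without strain replicate 3 (0.20) but not without any of the other 5 libraries (0.26 to 0.33).

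The distal membrane arm, built from the Ndufb subunits, had no called member. All 10 Ndufb genes had a positive log2 difference, from 0.02 (Ndufb3) to 0.33 (Ndufb9), and 0 of the 10 passed (4 were higher at an unadjusted limma p under 0.05). Of all genes, 48.4% were positive, 16.4% were called higher and 21.4% were higher at an unadjusted p under 0.05. Strain replicate 3 was the highest library in all 10, against 33.8% of all genes. Without that library Ndufb7 and Ndufb3 were negative (-0.13 and -0.026), as was Ndufb4, and the median of the 10 went from 0.15 to 0.12. Ndufb4, the most abundant subunit, differed by 0.06 (adjusted p = 0.71), and by -0.032 without strain replicate 3. Ndufab1, the mitochondrial acyl carrier protein, had the lowest difference of the complex (-0.12, adjusted p = 0.39).

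Complex II, which is also the citric acid cycle's succinate dehydrogenase, had its 4 subunits between 34.3 and 51.2 FPKM in controls. In the limma test 0 of the 4 passed, 2 were higher at an unadjusted p under 0.05, and all 4 differences were positive. Of all genes, 16.4% were called higher and 19.0% lower, 21.4% were higher at an unadjusted p under 0.05 and 48.4% were positive. Sdhc, a membrane anchor, was at 49.44, 53.68 and 50.35 FPKM in controls and 54.45, 59.92 and 68.82 FPKM under strain (log2 0.25, adjusted p = 0.092). Sdhd, the other anchor, was at 34.3 ± 0.372 and 39.9 ± 1.69 FPKM (SD, n = 3; log2 0.21, adjusted p = 0.065). Sdha, the flavoprotein, differed by 0.03 (adjusted p = 0.76). The groups did not overlap in 3 of the 4, Sdha being the one that overlapped, and in 24.0% of all genes with strain higher. With the scalings above, 3 (TPM), 3 (quantile) and 2 (median centring) of the 4 were called higher. The shares of all genes there were 20.3%, 21.0% and 20.2%.

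In complex III, 0 of 8 passed the limma test and 1 was higher at an unadjusted p under 0.05. Of all genes, 16.4% were called higher and 19.0% lower, and 21.4% were higher at an unadjusted p under 0.05. The median log2 of the complex was 0.11, and 0.045 without strain replicate 3. Without strain replicate 1, 1 of the 8 was called higher, where 14.8% of all genes were. With TPM, quantile and median scaling, 1, 2 and 1 of the 8 were called higher, where 20.3%, 21.0% and 20.2% of all genes were. Uqcrq, a small accessory subunit, had the largest difference (0.34, adjusted p = 0.078), with means of 23.9 ± 3.35 FPKM (controls) and 30.6 ± 4.87 FPKM (strain; SD, n = 3). Uqcrh, the hinge protein and the most abundant of the complex, stood at 83.5 ± 7.36 and 76.7 ± 10.2 FPKM (log2 -0.13, adjusted p = 0.43). Uqcrfs1, which encodes the Rieske iron-sulfur protein, differed by -0.02 (adjusted p = 0.85).

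Complex IV had the highest control median of the 5 (134.6 FPKM). Of its 10 ubiquitous subunits 0 passed the limma test, and 1 was higher at an unadjusted p under 0.05. Of all genes, 16.4% were called higher and 19.0% lower, and 21.4% were higher at an unadjusted p under 0.05. With TPM, quantile and median scaling, 1, 2 and 1 of the 10 were called higher, Cox4i1 in each. The shares of all genes there were 20.3%, 21.0% and 20.2%. The median log2 of complex IV was 0.02 with all libraries and -0.14 without strain replicate 3. Cox4i1, the regulatory subunit 4, had the largest difference, at 231.0, 221.8 and 204.0 FPKM in controls and 244.1, 252.3 and 321.4 FPKM under strain (log2 0.31, limma adjusted p = 0.086). It was the only 1 of the 10 whose groups did not overlap, where 24.0% of all genes did not overlap with strain higher. Cox7a2 had the lowest, at 72.51, 66.63 and 68.36 FPKM against 55.26, 61.13 and 70.00 FPKM (log2 -0.16, adjusted p = 0.26). There strain replicate 3 lay inside the control range and the other two below it, and without replicate 3 the difference was -0.25. Cox6a1, the most abundant, measured 233.0 ± 11.7 and 272.0 ± 60.0 FPKM (SD, n = 3), with strain replicate 3 at 341.3 FPKM.

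Complex V had 5 of 14 tested subunits higher (35.7%) and 0 lower (1 lower at an unadjusted limma p under 0.05). Over all genes, 16.4% were called higher and 19.0% lower. Its median log2 was 0.21, and 0.087 without strain replicate 3. The count was 0, 0 and 1 without control replicate 1, 2 and 3, and 3, 2 and 3 without strain replicate 1, 2 and 3. It was 7, 7 and 6 with TPM, quantile and median scaling. The shares over all genes in these settings are those given above. In the F1 head, where ATP is made, Atp5a1 (alpha) measured 129.7, 126.0 and 129.5 FPKM in controls and 146.8, 149.3 and 176.9 FPKM under strain. Atp5c1 (gamma, the shaft) measured 36.17, 34.92 and 33.73 against 40.22, 41.28 and 48.94 FPKM. Both had narrow control groups and no overlap, with log2 differences of 0.29 ± 0.10 and 0.30 ± 0.10 (limma adjusted p = 0.0497 and 0.0379). Atp5e (epsilon) was at 104.9, 93.16 and 104.6 FPKM against 127.5, 111.9 and 155.0 FPKM (log2 0.37 ± 0.13, adjusted p = 0.0494). Of the 15 alternatives, Atp5a1 lost its call in 8, Atp5c1 in 6 and Atp5e in 8. With 1 library left out, Atp5a1 stayed called only without strain replicate 3 and Atp5e only without strain replicate 2. Atp5c1 stayed called only without strain replicate 1 or 3. Atp5b (beta), which carries the catalytic sites and was the most abundant at 252.5 ± 7.73 FPKM in controls (SD, n = 3), differed by 0.10 (adjusted p = 0.49).

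In the stalk, Atp5o, the oligomycin-sensitivity protein that ties the stalk to the head, was at 72.40, 68.74 and 64.93 FPKM in controls and 84.26, 81.64 and 106.3 FPKM under strain. The groups did not overlap, and the log2 difference of Atp5o was 0.39 ± 0.11 (limma adjusted p = 0.0284). Without control replicate 1, 2 or 3 it was 0.43, 0.39 and 0.35 and did not pass. Atp5i, subunit e of the membrane part, was at 108.0, 116.7 and 154.1 FPKM in controls and 157.6, 163.2 and 191.9 FPKM under strain. Control replicate 3 of Atp5i lay just under the strain group (log2 0.45 ± 0.14, adjusted p = 0.0397), and the difference did not pass without control replicate 1 (0.34) or 2 (0.40) or strain replicate 2 (0.48) or 3 (0.36). In the c ring, Atp5g1 and Atp5g2 differed by -0.28 and 0.33 (adjusted p = 0.10 each), and Atp5g1 was called lower without control replicate 3 (-0.40).

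A total of 8 members fell under the level for testing. The complex I subunit Ndufa3 was listed at 0 in all 6 libraries, Ndufs6 in 5 of them with 1.08 FPKM in control replicate 1, and Ndufa1 lay between 0.21 and 0.80 FPKM. Atp5f1, subunit b of the stalk, lay between 0.60 and 1.66 FPKM. These 4 belong to complexes of which the other subunits stood at 4.69 FPKM or more in controls, and the low values are given only as listed. Cox7a1, Cox7b2, Cox8b and Cox8c were the other 4. The mitochondrially encoded subunits matched 0 of the rows and are not analysed here.

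Of the 5 copies or relatives 0 passed the limma test, and 1 was higher at an unadjusted p under 0.05. Of all genes, 16.4% were called higher and 19.0% lower, and 21.4% were higher at an unadjusted p under 0.05. With TPM, quantile or median scaling, 1 of the 5 was called higher, where 20.3%, 21.0% and 20.2% of all genes were. Cox7a2l was at 91.37, 89.65 and 80.53 FPKM in controls and 106.7, 92.66 and 118.6 FPKM under strain (log2 0.27, limma adjusted p = 0.084). The copies Cox7a2l2 and Ndufa10l1 and the relatives Atp5s (coupling factor B) and Atp5sl stood under 10 FPKM. Many small subunits have near-identical copies in the genome, and how fragments were shared among copies is not given in the sources used here, so a level of a small subunit may hold or lack fragments of a copy.

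Strain replicate 3 was the highest of the 6 libraries in 64 of the 77 members (83.1%), against 33.8% of all genes tested. It lay above the mean of strain replicates 1 and 2 in 74 of the 77, against 59.4% of all genes. The median excess was 0.30 on the log2 scale for members and 0.06 for all genes. Among ribosomal protein genes, replicate 3 was the highest in 84.4% of 90 cytosolic and in 74.6% of 71 mitochondrial ones, with a median excess of 0.33 and 0.26. Of the cytosolic set 33 were higher (36.7%) and 3 lower under strain, and of the mitochondrial set 14 were higher (19.7%) and 1 lower. Over all genes, 16.4% were higher and 19.0% lower. The excess was largest in complex IV, at 0.43, and 0.23 in complex I.

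Within a library, the mean log2 of complex IV stood above that of complex I by 2.15, 2.1 and 2.08 in controls and by 1.88, 1.91 and 2.04 under strain. Over complex V it stood above by 0.43, 0.38 and 0.39 in controls and by 0.21, 0.25 and 0.32 under strain. In both, every strain library was below every control, replicate 3 being the nearest to the controls. Complex III less complex I was 0.02, 0.08 and -0.04 in controls and -0.07, -0.06 and -0.07 under strain, also with no overlap. Complex V less complex I was 1.72, 1.72 and 1.70 in controls and 1.67, 1.65 and 1.73 under strain, which overlap. The part of the scale between libraries in these differences was not tested. No test was made of these means, since the genes of each were chosen with results known.

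**Figure D4:**
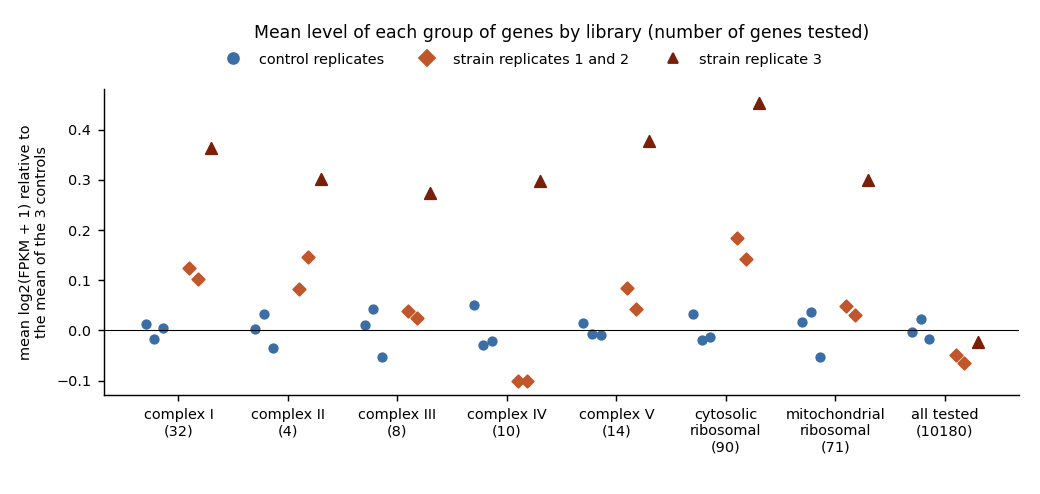
Mean log2(FPKM + 1) of the tested genes of each complex, of the ribosomal protein genes and of all genes tested, 1 point a library, each set relative to the mean of its 3 controls. Strain replicate 3 (triangles) is the highest library in every complex, and complex IV is lower in strain replicates 1 and 2 (diamonds) than in the controls (circles).

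Nuclear genes of the chain are known to be driven in common by NRF1 and by GABP, an ETS factor also called NRF2. The promoters of Ndufv3, Ndufa11 and Atp5o, called members of complexes I and V, are shown for that reason. They are RefSeq windows of GRCr8 of the same kind as above, Ndufv3 at chr20:9613536-9613835 on the plus strand, Ndufa11 at chr9:1637364-1637663 on the plus strand and Atp5o, listed there as Atp5po, at chr11:44657434-44657733 on the minus strand. Capitals mark the NRF1 core GCGCATGC (GCATGCGC on the other strand, which can overlap it) and the hypoxia cores ACGTG and GCGTG with their complements.
Ndufv3: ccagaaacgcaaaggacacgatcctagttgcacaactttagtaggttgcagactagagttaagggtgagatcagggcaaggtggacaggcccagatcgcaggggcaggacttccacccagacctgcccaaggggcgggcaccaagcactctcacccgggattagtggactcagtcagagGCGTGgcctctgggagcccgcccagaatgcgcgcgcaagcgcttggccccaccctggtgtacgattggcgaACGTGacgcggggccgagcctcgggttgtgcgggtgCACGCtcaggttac
Ndufa11: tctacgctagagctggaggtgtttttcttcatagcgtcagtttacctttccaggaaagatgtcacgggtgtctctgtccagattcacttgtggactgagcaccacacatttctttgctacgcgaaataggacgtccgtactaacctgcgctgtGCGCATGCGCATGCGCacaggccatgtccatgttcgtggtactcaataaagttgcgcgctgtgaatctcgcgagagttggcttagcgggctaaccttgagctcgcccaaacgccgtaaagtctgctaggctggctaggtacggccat
Atp5o: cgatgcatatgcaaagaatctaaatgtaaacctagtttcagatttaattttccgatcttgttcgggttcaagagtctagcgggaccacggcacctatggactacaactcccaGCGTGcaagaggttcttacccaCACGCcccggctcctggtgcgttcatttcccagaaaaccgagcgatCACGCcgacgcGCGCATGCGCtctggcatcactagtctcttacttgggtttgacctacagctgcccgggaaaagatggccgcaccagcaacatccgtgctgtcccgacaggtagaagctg

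The NRF1 core lay from 97 and again from 91 bases before the start in Ndufa11, and from 59 bases before it in Atp5o. Ndufv3 had no NRF1 core in this window. On either strand, 9 of the 74 members with an entry held the core (12.2%), against 2.47% of all 33469 promoters. Of the 12 called higher with an entry, 4 held it (Ndufa6, Ndufa11, Atp5i and Atp5o). The ETS core CCGGAAG, also searched on both strands, was in 19 of the 74 members (25.7%) and in 8.75% of all promoters, and in 3 of the 12 (Ndufa6, Atp5a1 and Atp5i). The hypoxia core ACGTG was in 28.4% of members and 19.3% of all promoters, and GCGTG in 43.2% and 29.7%.

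Of 14 regulators of mitochondrial biogenesis tested with limma, 0 were higher (also 0 at an unadjusted p under 0.05) and 3 were lower. Over all genes, 16.4% were higher and 19.0% lower. Gabpa, the DNA-binding subunit of GABP, was at 14.31, 12.70 and 13.68 FPKM in controls and 8.70, 8.49 and 6.43 FPKM under strain. Every strain library was below every control, and the mean was 1.72-fold lower (limma adjusted p = 0.0020). Yy1 and the mitochondrial DNA factor Tfam were each 1.30-fold lower (adjusted p = 0.0145 and 0.0401). Nrf1 differed by -0.25 (adjusted p = 0.085), and Ppargc1a, the coactivator of mitochondrial biogenesis, stayed at or under 0.163 FPKM.

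Assembly factors, which build the complexes and are no part of them, moved in both directions. The counts below stand beside 16.4% of all genes called higher and 19.0% called lower. For complex I, 3 of 12 rose, Nubpl (1.44 times), Ndufaf3 (1.40 times) and Timmdc1 (1.38 times), and Ndufaf4 was 1.56-fold lower (limma adjusted p = 0.0050). For complex III, 2 of 6 rose, Lyrm7 (1.70 times) and Uqcc3 (1.56 times, adjusted p = 0.0130), and 0 fell. For complex IV, 2 of 17 rose (Cox18 and Cox20) and 2 fell. Cox17, a copper chaperone, went from 130.8 ± 11.5 FPKM down to 98.1 ± 14.3 FPKM (SD, n = 3; adjusted p = 0.0259). Coa7 was the other. Atpaf1 rose as 1 of 3 for complex V, and 0 of 3 passed for complex II (1 at an unadjusted p under 0.05).

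Among partners of the chain few were called, where 35.4% of all genes were called in either direction. Cycs, the mobile electron carrier cytochrome c, fell from 46.0 ± 1.33 to 37.3 ± 2.68 FPKM (SD, n = 3; limma adjusted p = 0.0254), and was the only 1 called of the 4 tested among remaining subunits and carriers. In coenzyme Q synthesis 1 of 10 was called, Coq10b, which binds the quinone and was 1.70-fold lower (adjusted p = 0.000267). Among 15 genes of pyruvate dehydrogenase and the citric acid cycle 1 was called, Suclg2, 1.19 times as high (adjusted p = 0.0431). Of 6 carriers and outer membrane channels, Vdac3 was 1.25-fold lower (adjusted p = 0.0211) and the other 5 did not pass.

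Of the 18 genes called in these lists of assembly factors, regulators and partners, 7 stayed called when any 1 library was left out: Timmdc1, Ndufaf3, Ndufaf4, Lyrm7, Uqcc3, Gabpa and Coq10b. The rest lost their call without 1 or more of the libraries, with limma adjusted p between 0.0535 and 0.154 there. Without strain replicate 3, the losses were Nubpl (adjusted p = 0.0793), Cox18 (0.0708) and Coa7 (0.0674).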

How the data were processed

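RNA sequencing of 6 samples was deposited as 1 FPKM value per gene symbol and library. For the authors' deposited FPKM values, the submitters' processing notes list Cuffdiff 2.2.1, Cufflinks, HISAT2 2.0.4, DESeq and cutadapt 1.9.3, with no role or order. The only build named there is hg19, a human build, while the symbols are rat ones, so no coordinate was taken from the files. The annotation is not given in the sources used here.

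Of 22601 rows, 27 whose symbol had become a date and 1 broken row were left out. Values were taken as log2(FPKM + 1), which understates the change of low genes. The 10180 genes averaging 1 FPKM or more were tested with limma 3.58.1 in R 4.3.3 for strain minus control, using its trend and robust options. Benjamini-Hochberg adjustment ran over all tested genes with a threshold of 0.05, two-sided. Ratios are of group mean FPKM and are left out where a mean is under 1. Shares of isoform families were compared by exact permutation over samples. The fit was tested on simulated data of 10180 genes with 200 changed, in 5 runs. It recovered 20% of changes of log2 0.4 and 84.2% of changes of log2 1, with 4.4% false among the calls. Small changes were thus mostly missed there. Far more genes were called in the real data (3608), so these shares may differ in it.

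The members, lists and tests were chosen with earlier results of these data known. Named members are those called, the most abundant and the largest rise and fall of each complex, every isoform with its partner, every member under the filter and the relatives. From other lists, called genes were named, up to the 4 smallest p of each list. Genes of the pericyte and hypoxia lists, and uncalled members beyond the rule such as Ndufv1, Ndufs1, Ndufs7, Ndufb3, Ndufb9, Sdhd and Uqcrfs1, were chosen after their values were seen. Symbols were matched to the RefSeq promoter table of GRCr8, which held 74 of the 85 members. Alternatives were the pseudocount, the filter, the scaling between libraries, the moderation, the replicate block and leaving out each library. The values of 1 tested member, which counts in the totals, are not reported here.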

Additional observations from a re-analysis of the deposited data

How the results depend on the processing

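Of the 14 called members, 5 were called in all 15 alternatives. Over 30 named members and all alternatives, 449 single values were compared: 376 kept direction and side of the threshold, 51 lost their call, 18 gained one and 4 reversed. The count of members called higher (13) was 6 with no filter on low values, 29 after scaling to TPM, 34 after quantile normalization and 25 after median centring. Leaving out 1 library gave 5 to 13 called higher and 0 to 2 called lower. The 1 member called lower, Cox6b2, was called neither with a pseudocount of 0.1 or 0.5, nor with no filter or after TPM, and was left out by a filter at 5 FPKM, so that 0 were lower in each. The members' median log2 difference (0.16) ranged from 0.10 to 0.23 when 1 library was left out. Uncalled members near 0 changed sign: leaving out 1 library gave Atp5g3 -0.253 to 0.033, Cox8a -0.14 to 0.13 and Ndufb4 -0.032 to 0.14. The cause was not tested, except that no filter means more genes in the adjustment (16152). Replicate numbers are shared between groups in the titles. Deviations of same-numbered samples correlated across genes at r = 0.033, 0.108 and -0.116, and those of differently numbered samples at -0.21 to 0.12. These values cannot tell whether same-numbered samples came from 1 culture or animal. With a replicate block, 9 members were called higher and 1 lower. Depth is unknown, so no counting limit can be given for the low members.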
